A study of Mus musculus with 19 samples.

Results

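Potassium channel subunit genes were examined in purified mouse cortical projection neurons, as the 84 genes whose symbol begins with Kcn among 18193 genes measured on Affymetrix Mouse Genome 430 2.0 arrays. The rule of choice used symbols and brightness alone, though it was set with earlier results of these data known. Of the probe sets 167 carried such a symbol, and each gene was represented by the probe set with the highest mean over all 19 arrays. By symbol prefix the 84 genes comprised 22 voltage-gated (Kv) pore-forming subunits, 9 Kv modifier subunits, 4 Kv channel-interacting proteins (KChIP) and 8 other auxiliary subunits. A further 12 were two-pore (K2P) and 15 inward rectifier (Kir) subunits. The 11 subunits with the prefixes Kcnm, Kcnn, Kcnt and Kcnu are called calcium- or sodium-activated by prefix, not by how each opens. The other 3 were noncoding transcripts named after a channel gene (Kcnq1ot1, Kcnmb4os1 and Kcnmb4os2). The neurons came from C57BL/6 mice with no transgene or treatment named, were marked by fluorescent microspheres injected where their axons run, and were then sorted by fluorescence. Corticotectal projection neurons (CTPN) were taken at postnatal day 14 (P14), and corticospinal motor neurons (CSMN) and callosal projection neurons (CPN) at embryonic day 18 (E18), P3, P6 and P14. Groups held 2 arrays each, or 3 for the P3 group of CSMN. CTPN were collected from visual cortex and the others from sensorimotor cortex, which makes cortical area and neuron type inseparable wherever CTPN enter.

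Potassium channels let potassium leave or enter the cell and so set the resting potential, the shape of the action potential and the rate of firing. Kv subunits open on depolarization, and their modifier relatives make no channel alone but join Kv pore subunits of another family and change how these behave. Calcium- and sodium-activated channels link firing to the ions that firing brings in, while K2P and Kir channels act mainly near rest, where Kir subunits of the G protein-gated kind answer to transmitters such as GABA. Young neurons fire slow, broad action potentials that become fast and brief as potassium currents grow during postnatal development.

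The values are log2 expression, and a difference of 1 is a doubling where a gene lies well above background. Array medians lay between 6.42 and 6.62, no detection calls were used, and a fold is printed if every array of both sides exceeded 6.62. Both CPN arrays at E18 stood apart in progenitor and dividing-cell markers: 6 of 7 were higher there than on every other array, with a list mean of 10.85 and 10.97 against 5.70 to 7.80 elsewhere, and 1 of the 7 stayed below 6.62. The astrocyte list mean was also high there (9.32 and 9.73, against 6.63 to 8.49 elsewhere), but 2 of 5 markers were higher on both arrays than on every other, and Aqp4 (7.43 and 7.47) and Gfap (6.77 and 7.08) were not. The CSMN pair at P14 was the least alike of all groups, with a correlation across genes of 0.904, against 0.949 to 0.996 between arrays of the other groups, and its mean for cortical projection neuron markers was 9.25 in replicate 1 and 7.01 in replicate 2. Microglia markers had means of 8.96 in replicate 1 and 7.24 in replicate 2 of that pair. The CTPN arrays were also low in projection neuron markers, with means of 6.92 and 7.86, against 9.19 and 9.24 in CPN at P14. That list held 3 measured genes, Slc17a7, Neurod6 and Tbr1. The corticospinal markers Bcl11b, Fezf2 and Crym went the other way, with means of 11.85 and 11.77 in CTPN at P14. Their means at P14 were 11.56 and 11.14 in CSMN and 8.88 and 8.71 in CPN. The part of these marker differences in the P14 results was not tested. Replicate 2 of the CSMN pair also held the highest value of 20 of the 84 genes. The RNA came from whole sorted samples, so fewer cells of a type and less RNA per cell cannot be told apart.

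By level, 34 of the 84 genes lay above 6.62 on all 19 arrays and 10 on none. Of the Kv pore-forming genes 14 of 22 lay above it throughout, and of the K2P genes 6 of 12. Of the 15 Kir genes only Kcnj11, a pore subunit of ATP-sensitive channels, and Kcnj6, a G protein-gated subunit, did so. Kcnj11 stayed between 10.44 and 11.31 on all arrays. The spread of a gene over the 19 arrays, highest minus lowest, had a median of 2.76 among KChIP genes, 2.20 among calcium- and sodium-activated subunits, 1.90 among Kv pore-forming, 1.81 among modifier, 1.53 among other auxiliary, 1.22 among K2P and 0.89 among Kir genes. The same median over all genes was 1.42. The widest spread among the members was that of the modifier Kcnf1, at 6.28.

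The first question was how channel expression changed between E18 and P14 in each neuron type. In CSMN 22 of the 84 genes changed, 20 higher and 2 lower at P14, against 15.1% of all genes called in that comparison (9.27% higher and 5.85% lower). In CPN 30 changed, 28 higher and 2 lower, against 19.2% of all genes (10.2% higher and 8.98% lower). All CPN differences from E18, higher and lower, are measured from the arrays with high progenitor markers. The part of those markers in them was not tested. The share of members called was 26.2% in CSMN and 35.7% in CPN, above that of all genes in both, and nearly all of it lay in the higher direction. The median difference of the members was 0.34 in CSMN and 0.22 in CPN, against -0.00 and 0.03 over all genes. By family, 7 of 22 Kv pore-forming genes were higher in CSMN and 11 of 22 in CPN, 2 of 9 and 3 of 9 modifiers, 1 of 4 and 2 of 4 KChIP genes, 3 of 11 and 4 of 11 calcium- or sodium-activated subunits, 2 of 12 and 3 of 12 K2P genes, and 2 of 15 in each type among Kir genes.

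**Figure D1:**
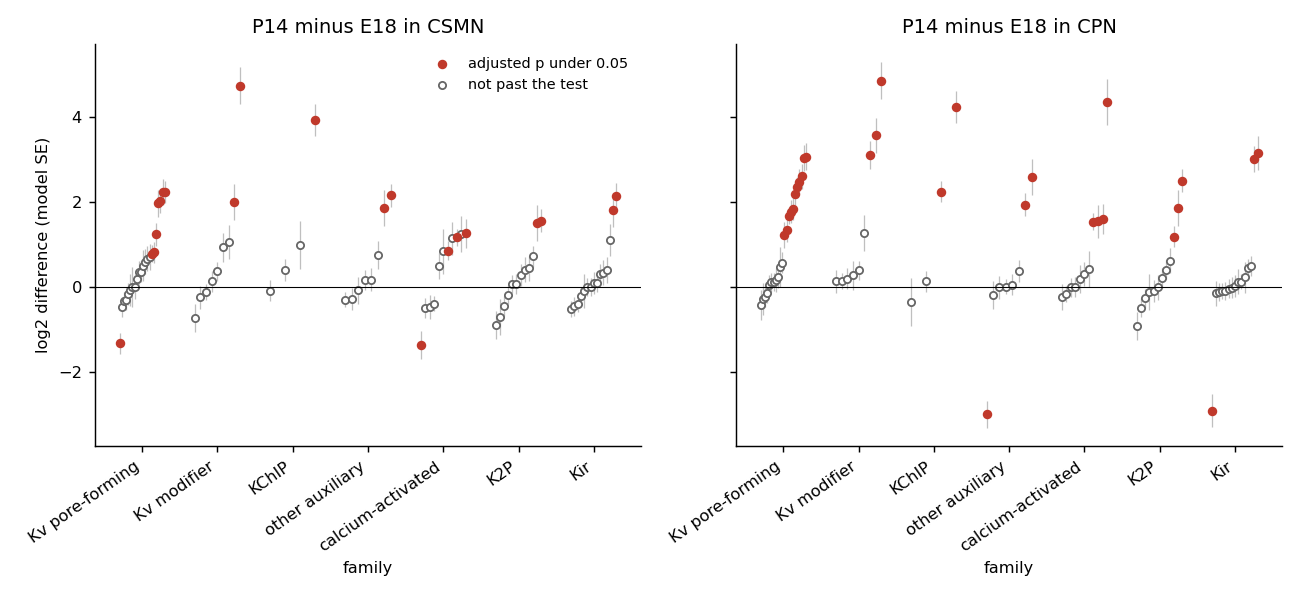
Difference between P14 and E18 on the log2 scale for each of the 81 subunit genes, grouped by family, in CSMN (left) and CPN (right). Red points passed an adjusted p of 0.05, open points did not, and bars are the model's standard error; 19 subunit genes were higher in CSMN and 27 in CPN, and the 2 lower genes in each panel differ between the types.

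The modifier Kcnf1 had the widest difference of all members in both types. It read 10.27 and 9.23 in CSMN at P14, against 5.47 and 4.56 at E18, and 10.50 and 10.62 in CPN at P14, against 6.19 and 5.23 at E18. The P14 and E18 arrays did not overlap in either type. The differences were 4.73 ± 0.43 in CSMN (adjusted p = 5.59e-06) and 4.85 ± 0.43 in CPN (adjusted p = 1.63e-06), where ± is the standard error (SE) of the limma model. Kcns2, another modifier, was at 10.10 and 10.17 in CPN at P14, against 7.32 and 5.82 at E18 (3.56 ± 0.40, adjusted p = 1.56e-05). In CSMN it differed by 1.05, which did not pass. Kcng1, also a modifier, was called in CSMN, where it was 4.0-fold higher at P14 (10.68 and 9.05, against 8.30 and 7.44, adjusted p = 0.00535). In CPN it differed by 1.26 with an adjusted p of 0.0501.

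Kcnc4, a subunit of fast, inactivating channels, was 4.68-fold higher in CSMN (10.28 and 9.66 at P14, against 8.12 and 7.37 at E18) and 8.14-fold higher in CPN (10.60 and 10.68, against 7.87 and 7.36). Kcnd2, which carries the dendritic A-type current, was 4.05-fold higher in CSMN (10.89 and 9.86, against 8.10 and 8.62) and 4.58-fold higher in CPN (10.74 and 10.73, against 8.51 and 8.56). Kcna1, a low-threshold axonal subunit, was 4.69-fold and 3.57-fold higher in CSMN and CPN. Kcnh1, of the ether-a-go-go family, was 3.90-fold higher in CSMN (9.41 and 9.05, against 7.59 and 6.95) and 8.36-fold in CPN (10.46 and 10.32, against 7.57 and 7.08). Kcnq3, a subunit of the M-current that restrains repeated firing, was 1.71-fold higher in CSMN and 3.18-fold in CPN. The CSMN call of Kcnq3 did not pass with quantile normalization (0.49, adjusted p = 0.14) or cyclic loess (0.54, adjusted p = 0.11). Kcnq5, its relative, differed by 2.60 ± 0.29 in CPN (10.43 and 10.36, against 8.32 and 7.27) and by 0.66 without passing in CSMN. Kcna2 and Kcnc1 differed by -0.16 and 0.18 in CSMN and by 0.23 and 0.11 in CPN, none past the test, though for Kcna2 other probe sets of the gene differed from the brightest, as given further on.

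Kcnip4, a KChIP that binds A-type Kv channels, rose nearly as far as Kcnf1. It read 10.04 and 8.86 in CSMN at P14, against 5.45 and 5.62 at E18 (3.92 ± 0.38, adjusted p = 8.20e-06), and 10.33 and 10.22 in CPN at P14, against 5.84 and 6.22 at E18 (4.24 ± 0.38, adjusted p = 1.61e-06). P14 and E18 arrays did not overlap in either type. Kcnip2, which also binds A-type channels, rose in CPN alone by the test (2.24 ± 0.25), with CSMN at -0.09. Kcnip1 differed by 0.98 in CSMN and by -0.35 in CPN and passed in neither. The cytoplasmic beta subunits Kcnab1 and Kcnab2 rose in both types, Kcnab1 by 1.85 and 2.58 and Kcnab2 by 2.16 and 1.93 in CSMN and CPN.

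Among calcium- and sodium-activated channels, the large-conductance pore gene Kcnma1 was 2.25-fold higher in CSMN and 2.90-fold in CPN, and its neuronal partner Kcnmb4 was 2.39-fold and 3.03-fold higher. The opposite-strand transcript Kcnmb4os2 was 2.43-fold and 2.18-fold higher. Kcnt2, a sodium-activated subunit, was at 9.30 and 9.27 in CPN at P14, against 5.79 and 4.08 at E18 (4.34 ± 0.53, adjusted p = 3.52e-05). Its CSMN arrays read 9.06 and 7.20 at P14, against 7.27 and 7.32 at E18, and overlapped. Kcnn2, a small-conductance subunit, differed by 0.85 ± 0.21 in CSMN (adjusted p = 0.0149) and by -0.01 in CPN. Kcnn1, of the same kind, differed by 1.25 and 0.42 without passing.

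Of the G protein-gated Kir subunits, Kcnj3 was at 9.35 and 8.06 in CSMN at P14, against 6.42 and 6.74 at E18 (2.13 ± 0.31), and at 9.25 and 9.17 in CPN, against 6.03 and 6.39 (3.00 ± 0.31). Kcnj9 was 3.52-fold higher in CSMN and differed by 3.14 ± 0.40 in CPN (10.09 and 9.81, against 6.25 and 7.38). Of the K2P genes, Kcnk1 was 2.94-fold higher in CSMN and 5.65-fold in CPN, Kcnk12 was 2.83-fold higher in CSMN and differed by 1.85 in CPN, and Kcnk4, a mechanically gated subunit, was 2.27-fold higher in CPN. Kcnk2, a mechanically gated relative, differed by -0.72 in CSMN and by -0.12 in CPN and passed in neither.

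**Figure D2:**
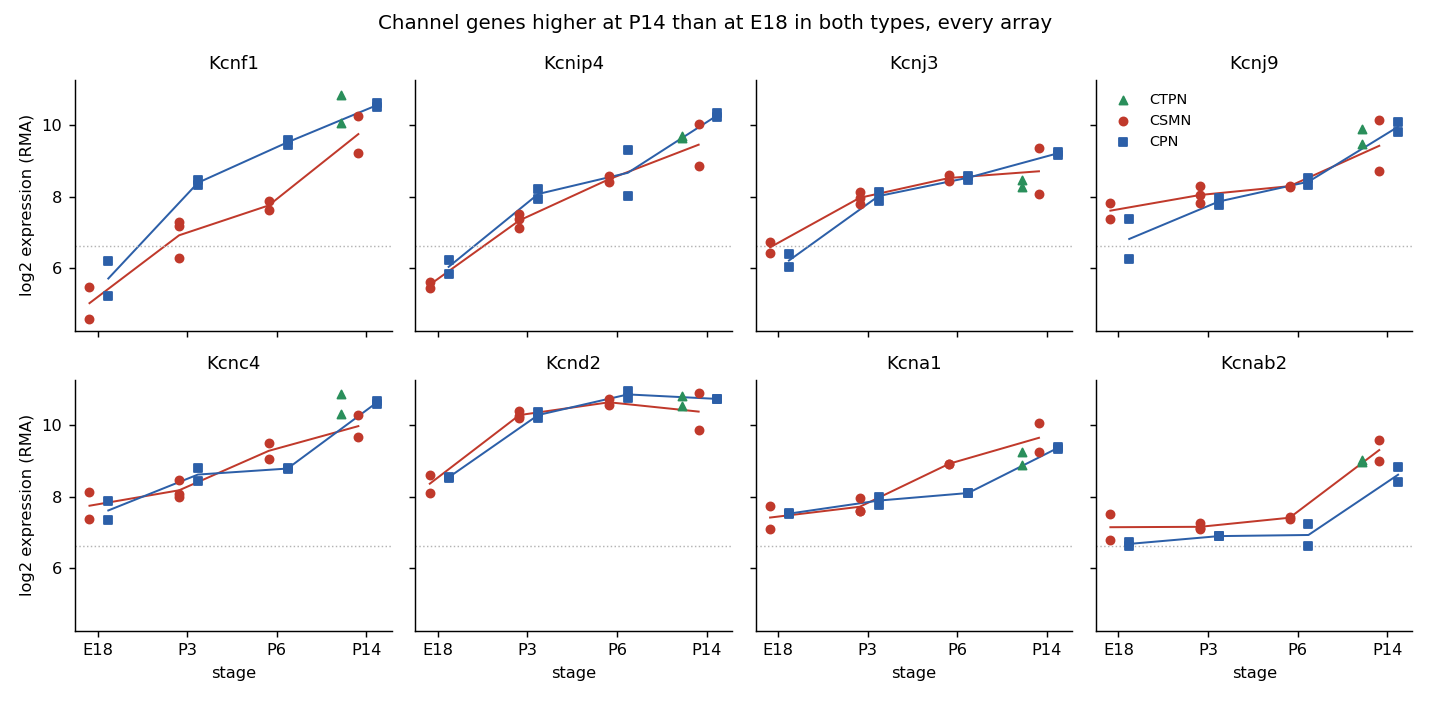
Log2 expression of 8 channel genes called higher at P14 than at E18 in both types, by stage, with every array shown (CTPN green triangles, CSMN red circles, CPN blue squares) and lines joining group means. The dotted line is the highest array median, 6.62; Kcnf1 and Kcnip4 start below it at E18 and reach 8.86 or more on every P14 array.

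The rise was shared in part. Of the 20 genes higher in CSMN and the 28 higher in CPN, 18 were called in both. That is 90.0% of the CSMN calls and 64.3% of the CPN calls. The same overlap was not counted over all genes, so these shares are not read as particular to channel genes. These shared genes were Kcna1, Kcna6, Kcnc2, Kcnc4, Kcnd2, Kcnh1, Kcnq3, Kcnf1, Kcnip4, Kcnab1, Kcnab2, Kcnma1, Kcnmb4, Kcnmb4os2, Kcnk1, Kcnk12, Kcnj3 and Kcnj9. A further 10 were called higher in CPN alone (Kcna4, Kcnh3, Kcnh5, Kcnq5, Kcns2, Kcnv1, Kcnip2, Kcnt1, Kcnt2 and Kcnk4) and 2 in CSMN alone (Kcng1 and Kcnn2), which does not by itself show a difference between the types.

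The 250 bases before the listed start are shown for Kcnf1, Kcnd2 and Kcnj9, 3 genes that rose in both types. They are also shown for Kcnh5, which was called in CPN alone. These genes were picked by hand among members with 1 start listed in RefSeq (GRCm38.p6), and it is the start of the gene. Of the members 64 had a promoter entry, and 49 had 1 listed start. The windows are at chr12:17176889-17177138 (minus strand) for Kcnf1, chr6:21215096-21215345 (plus strand) for Kcnd2, chr1:172329323-172329572 (minus strand) for Kcnj9 and chr12:75177333-75177582 (minus strand) for Kcnh5. Capitals mark matches on either strand to the GC box GGGCGG, to the CCAAT box, to the TATA box written TATAAA, and to CGTCA, which is the core of a cyclic AMP response element. No 2 of these motifs overlap in the windows shown.
Kcnf1: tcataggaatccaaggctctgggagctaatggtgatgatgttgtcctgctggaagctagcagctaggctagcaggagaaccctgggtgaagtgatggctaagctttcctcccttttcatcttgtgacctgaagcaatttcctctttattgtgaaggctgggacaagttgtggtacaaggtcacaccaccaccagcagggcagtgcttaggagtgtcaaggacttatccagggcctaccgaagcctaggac
Kcnd2: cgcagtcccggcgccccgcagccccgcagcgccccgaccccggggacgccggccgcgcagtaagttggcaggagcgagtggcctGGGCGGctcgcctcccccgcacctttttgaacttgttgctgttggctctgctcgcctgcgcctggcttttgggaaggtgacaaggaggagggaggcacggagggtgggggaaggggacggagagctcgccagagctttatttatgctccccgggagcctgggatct
Kcnj9: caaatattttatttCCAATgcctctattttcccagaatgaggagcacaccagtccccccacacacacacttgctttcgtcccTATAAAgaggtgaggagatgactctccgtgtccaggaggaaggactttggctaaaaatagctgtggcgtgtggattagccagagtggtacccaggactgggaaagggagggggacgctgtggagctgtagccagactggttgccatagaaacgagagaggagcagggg
Kcnh5: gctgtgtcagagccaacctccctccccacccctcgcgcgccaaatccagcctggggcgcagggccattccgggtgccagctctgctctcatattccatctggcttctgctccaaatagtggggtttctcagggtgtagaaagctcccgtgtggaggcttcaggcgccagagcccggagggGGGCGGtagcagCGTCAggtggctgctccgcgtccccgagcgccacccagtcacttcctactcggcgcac
No motif occurred in all 4 windows. That of Kcnf1 held none of these letters, and that of Kcnd2 held the letters of the GC box. That of Kcnj9 held the letters of the CCAAT box and of the TATA box. That of Kcnh5 held those of the GC box and of the response element core. These are letter matches anywhere in the 250 bases. Their distance from the start was not used, and the TATAAA of Kcnj9 does not lie close to the start. Their GC content ran from 51.2% for Kcnf1 and 52.0% for Kcnj9 to 65.6% for Kcnh5 and 68.8% for Kcnd2, and the dinucleotide CG occurred 1, 5, 16 and 22 times in the same order. Among 32536 RefSeq windows of the same length the letters of the GC box were present in 33.0% and those of the CCAAT box in 33.8%. Those of the TATA box were present in 12.3% and those of the response element core in 17.9%.

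Few members fell. Kcnj10, the main inward rectifier of glia, was at 6.13 and 6.02 in CPN at P14, against 9.50 and 8.48 at E18 (-2.91 ± 0.40, adjusted p = 8.90e-05). Kcne1l, an auxiliary subunit, was at 5.94 and 5.70 in CPN at P14, against 9.49 and 8.15 at E18 (-3.00 ± 0.32, adjusted p = 9.08e-06). On no other array did Kcnj10 exceed 7.26 or Kcne1l 6.52. These are the CPN arrays in which progenitor markers and 2 of 5 astrocyte markers stood high, and their part in the result was not tested. The next highest Kcnj10 values, 7.12 and 7.26, were those of CSMN at P6. The astrocyte marker means there, 8.42 and 8.49, were also the highest outside CPN at E18, but the markers did not move alike. Gja1 read 10.85 and 10.63 and Slc1a3 9.29 and 9.89. Aqp4 (7.61 and 7.57), Gfap (7.03 and 7.08) and Aldh1l1 (7.33 and 7.27) were each exceeded on other arrays outside CPN at E18. The part of these markers in the Kcnj10 values was not tested. In CSMN the genes that fell were Kcnh8, of the ether-a-go-go family (5.68 and 5.35 at P14, against 6.89 and 6.80 at E18), and Kcnmb2, an inactivating beta subunit of the large-conductance channel (6.64 and 5.43, against 7.21 and 7.60).

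With P3 in place of E18, 19 members were called in CSMN (12.6% of all genes) and 18 in CPN (8.13%). Calls of Kcnf1, Kcnip4, Kcnc4, Kcna1, Kcnab2 and Kcnj9 were made in both types in that setting too, while Kcnd2 and Kcnq3 differed by 0.10 and -0.15 in CSMN and by 0.45 and -0.03 in CPN. A model of the groups compared alone called 4 members in CSMN, and array weights called 6.

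The stages between showed when the members moved. From E18 to P3, as the mean of both types, 17 were higher and 3 lower at P3 (13.1% of all genes called, 9.16% higher and 3.91% lower). From P3 to P6 limma called 0 members (0.066% of all genes), with 11 at an unadjusted p under 0.05, as were 3.87% of all genes. With array weights 10 were called in that step and with the groups compared alone 1. From P6 to P14, 14 were higher and 3 lower at P14 (12.9% of all genes, 5.51% higher and 7.36% lower). Kcnd2 and Kcnq3 belonged to the first step: the mean of Kcnd2 was 1.83 ± 0.18 higher at P3 than at E18, and that of Kcnq3 1.32 ± 0.13. Kcnq3 then stood 0.50 ± 0.14 lower at P14 than at P6 (-0.77 in CSMN and -0.23 in CPN), a call that did not pass under quantile normalization (-0.42, adjusted p = 0.092) or cyclic loess (-0.37, adjusted p = 0.14). Kcnt2 (2.70 ± 0.36), Kcnj3 (1.59 ± 0.21) and Kcnma1 (0.94 ± 0.13) also rose in the first step in the mean of the types and were not called in the last. For Kcnma1 the first step was 0.56 in CSMN (adjusted p = 0.0611) and 1.31 in CPN.

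Kcnab2 belonged to the last step in both types. It read 9.60 and 9.01 in CSMN at P14, against 7.43 and 7.38 at P6, and 8.82 and 8.40 in CPN, against 7.23 and 6.62 (1.79 ± 0.19 in the mean, adjusted p = 3.36e-05), having been no higher than 7.51 at E18 or P3. Kcnc4 was 1.27 ± 0.22 and Kcna1 0.99 ± 0.19 higher at P14 than at P6 in the mean of both types. Taken apart, Kcnc4 differed in that step by 0.69 in CSMN (adjusted p = 0.186) and by 1.85 in CPN (adjusted p = 0.00236), and Kcna1 by 0.72 in CSMN (adjusted p = 0.124) and by 1.26 in CPN (adjusted p = 0.0113). In CSMN the difference between P6 and P3 was the wider one for both genes, though neither passed (adjusted p = 0.422 for Kcnc4 and 0.156 for Kcna1). Kcnf1 and Kcnip4 rose in both steps in the mean of the types, Kcnf1 by 2.29 ± 0.29 and then 1.52 ± 0.31, Kcnip4 by 1.92 ± 0.25 and then 1.29 ± 0.27. In the last step Kcnf1 differed by 2.00 ± 0.43 in CSMN and 1.04 ± 0.43 in CPN, and Kcnip4 by 0.97 ± 0.38 in CSMN and 1.61 ± 0.38 in CPN. In the other direction, Kcnk10, a mechanically gated K2P subunit, fell in the last step to 8.52 and 7.08 in CSMN, against 9.39 and 9.23 at P6, and to 7.90 and 7.76 in CPN, against 9.20 and 9.49 (-1.51 ± 0.23, adjusted p = 0.000638). Kcnmb2 fell in the last step (-1.31 ± 0.23), by -1.28 in CSMN and -1.34 in CPN. Its rise in the first step, 0.73 ± 0.22 in the mean, was 0.16 in CSMN (adjusted p = 0.72) and 1.31 in CPN (adjusted p = 0.0202). Kcnip3, a KChIP that also acts as a calcium-dependent repressor of transcription, fell by 0.71 ± 0.17 between E18 and P3 and rose by 0.72 ± 0.18 between P6 and P14. Leaving out single arrays moved 2 of these counts by over 1.5 times. Without CPN P3 replicate 2 the first step had 13 calls. The last step had 39 calls without CSMN P14 replicate 1, 11 without CPN P14 replicate 1 or CSMN P6 replicate 1, and 10 without CSMN P6 replicate 2.

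The next question was whether the rise from E18 to P14 differed between the types. By the interaction term it did for 9 members, 2 with a greater and 7 with a smaller difference in CSMN (10.7% of members, against 5.18% of all genes, 3.53% and 1.65% by direction). The modifier Kcnv1 differed most. Its CSMN arrays read 8.63 and 8.74 at E18, then 8.60, 8.23 and 8.49 (P3), 8.37 and 7.86 (P6), and 8.27 and 7.61 (P14). Its CPN arrays read 7.77 and 6.61 at E18, then 8.76 and 9.21 (P3), 9.26 and 9.29 (P6), and 10.32 and 10.25 (P14). CSMN therefore lay above CPN at E18 and below it at every later stage, with no overlap at any. The change from E18 to P14 was -0.74 in CSMN, which did not pass, and 3.10 ± 0.33 in CPN, so the interaction was -3.84 ± 0.46 (adjusted p = 0.000181). The other 2 probe sets of Kcnv1 gave -0.61 and -0.40 in CSMN and 2.77 and 2.87 in CPN.

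Kcnip2 was at 9.01 and 9.42 in CSMN at P14, against 9.58 and 9.01 at E18, and at 11.06 and 10.79 in CPN at P14, against 8.63 and 8.74 at E18 (interaction -2.33 ± 0.35, adjusted p = 0.00105). Kcnt2 (-3.51 ± 0.76), Kcns2 (-2.51 ± 0.57), Kcnq5 (-1.93 ± 0.42), Kcnh5 (-1.88 ± 0.42) and Kcnc2 (-1.53 ± 0.35) also changed less in CSMN. Of these 7 genes, Kcnv1, Kcnt2, Kcns2 and Kcnq5 were higher in CSMN than in CPN at E18, and Kcnv1, Kcnip2, Kcnh5 and Kcnc2 were lower at P14. The 2 genes with a greater value in CSMN were Kcne1l (2.92 ± 0.45) and Kcnj10 (2.81 ± 0.56), which fell in CPN from the E18 arrays described above. With P3 in place of E18 the interaction was called for Kcnip2 alone (-2.34, adjusted p = 0.0199, with 0.115% of all genes called), and Kcnv1 was at -1.79 (adjusted p = 0.19). The count was 25 without CSMN P14 replicate 1, and 5 without CPN E18 replicate 2 or either CPN P14 array.

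**Figure D3:**
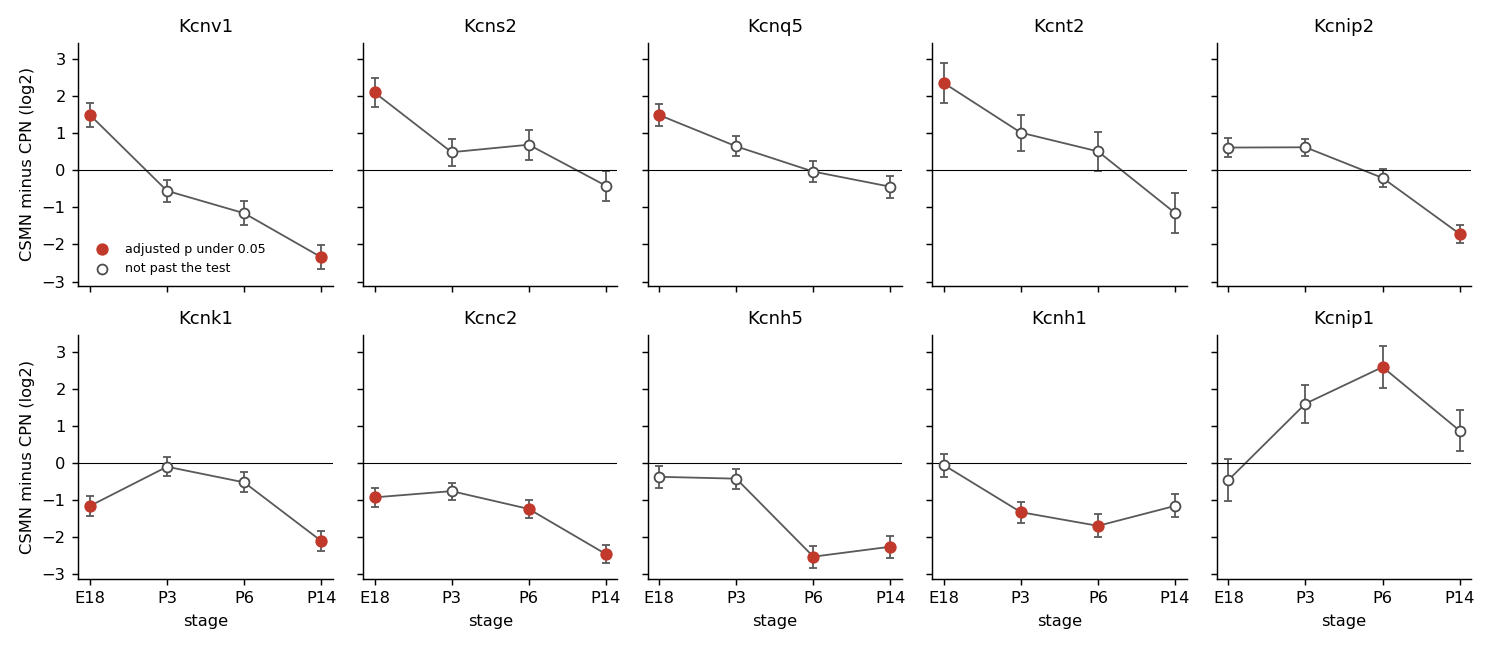
Difference between CSMN and CPN (log2, CSMN minus CPN) at each stage for 10 members called at 1 stage or more, with the model's standard error. Red points passed an adjusted p of 0.05 and open points did not; Kcnv1 runs from 1.49 at E18 to -2.34 at P14, and Kcnip1 is highest at P6, at 2.58.

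The types were also compared as the mean of 4 stages. Of the 84 members 16 differed, 6 higher and 10 lower in CSMN (8.29% of all genes were called, 2.96% higher and 5.34% lower). The widest differences were those of Kcnh5 (-1.40 ± 0.15, adjusted p = 2.89e-05), Kcnc2 (-1.35 ± 0.12, adjusted p = 8.45e-06), Kcnf1 (-1.18 ± 0.21, adjusted p = 0.0021), Kcnip1 (1.15 ± 0.27, adjusted p = 0.0163), Kcnh1 (-1.06 ± 0.15, adjusted p = 0.000367) and Kcnk1 (-0.97 ± 0.13, adjusted p = 0.000261). The other genes higher in CSMN were Kcng1 (0.85 ± 0.21), Kcns2 (0.72 ± 0.20), Kcnab2 (0.48 ± 0.13), Kcnn2 (0.44 ± 0.10) and Kcnq3 (0.35 ± 0.10). The other genes lower were Kcnd3, an A-type subunit (-0.86 ± 0.18), Kcnj10 (-0.78 ± 0.19), Kcnmb2 (-0.68 ± 0.16), Kcnv1 (-0.64 ± 0.16) and Kcne1l (-0.55 ± 0.16). For Kcnc2 and Kcnd3 all CSMN arrays lay below the CPN arrays of their stage at all 4 stages, and for Kcnab2 above them. Such separation was looked at among the 16 called genes alone and not over all genes, so it adds nothing to the calls. Among members always examined and not past the test, Kcna1, Kcna2, Kcnd2, Kcnma1, Kcnmb4, Kcnj3, Kcnip4 and Kcnk2 differed by 0.21, 0.08, -0.19, 0.11, 0.44, -0.05, -0.56 and -0.57. Without E18, over P3, P6 and P14, 10 of the 16 were called and no other member (4.11% of all genes). Those no longer called were Kcns2, Kcnq3, Kcnab2, Kcnd3, Kcnj10 and Kcne1l, with Kcnj10 and Kcne1l at 0.04 and 0.16. The 4-stage mean includes the CPN arrays at E18 with high progenitor markers, whose part in these calls was not tested. Cyclic loess called 10 higher and 12 lower. Without CSMN P14 replicate 1 the count was 29, and without either CPN P3 or either CSMN P6 array it was 10.

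Stage by stage the calls differed in kind. At E18, 7 members were higher and 5 lower in CSMN (14.3% of members, close to 12.9% of all genes, 3.98% higher and 8.94% lower). Those higher included Kcnt2 (7.27 and 7.32 in CSMN, against 5.79 and 4.08 in CPN), Kcns2 (8.68 and 8.66, against 7.32 and 5.82), Kcnq5 (9.52 and 9.05, against 8.32 and 7.27) and Kcnv1. Those lower were Kcnj10 (-3.23 ± 0.40), Kcne1l (-2.68 ± 0.32), Kcnd3 (-1.81 ± 0.36), Kcnk1 (-1.16 ± 0.27) and Kcnc2 (-0.93 ± 0.25). The progenitor markers named above lay between 5.74 and 5.91 in CSMN and between 10.85 and 10.97 in CPN at this stage, and their part in these 12 calls was not tested. Under quantile normalization the split at E18 was 12 higher and 5 lower.

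At P3 Kcnh1 was the only member called (8.01, 8.06 and 8.65 in CSMN, against 9.46 and 9.68 in CPN, 2.51-fold lower in CSMN), where 0.874% of all genes were, 0.374% lower. The call did not pass without either CPN P3 array, either CPN P14 array, either CSMN P6 array, or CSMN P3 replicate 1 or 2, and 3 members were called without either CSMN P14 array. At P6, 4 members were called (4.76%, against 1.07% of all genes, 0.671% higher and 0.401% lower). Kcnh5 was at 4.17 and 3.80 in CSMN, against 6.62 and 6.41 in CPN (-2.53 ± 0.30, adjusted p = 0.000496). Kcnh1 was 3.24-fold lower in CSMN (8.26 and 8.20, against 9.76 and 10.10), and Kcnc2 was lower by 1.24 ± 0.25. Kcnip1 was higher, at 9.05 and 9.10 in CSMN, against 6.15 and 6.83 in CPN (2.58 ± 0.56, adjusted p = 0.0394), a call that missed the threshold under quantile normalization (2.38, adjusted p = 0.052). At P14 its 2 CSMN arrays parted, at 9.25 and 6.83, with CPN at 7.24 and 7.11. Without either CPN P6 array or either CSMN P6 array the count at P6 was 1.

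At P14, 5 members were called, all lower in CSMN (5.95%, against 1.39% of all genes, 0.445% higher and 0.945% lower), and the same 5 were lower in CTPN against CPN. In CTPN against CPN 6 members were called (7.14%, against 1.06% of all genes, 0.456% higher and 0.605% lower). In CTPN against CSMN limma called 0 (0.192% of all genes). At an unadjusted p under 0.05 there were 16 members in CTPN against CSMN, and 8.81% of all genes. The projection neuron marker means given above were lower in CTPN than in CPN. The CPN arrays are shared between the first and second of these comparisons, so their differences are given side by side and are not independent. Kcnv1 was at 7.88 and 8.19 in CTPN and 8.27 and 7.61 in CSMN, against 10.32 and 10.25 in CPN (-2.25 and -2.34, SE 0.33). Kcnc2, a subunit of fast delayed rectifiers, was at 6.10 and 6.77 in CTPN and 6.52 and 6.01 in CSMN, against 8.77 and 8.68 in CPN (-2.29 and -2.46, SE 0.25). Kcnh5 was at 4.24 and 5.03 in CTPN and 4.87 on both CSMN arrays, against 7.29 and 6.97 in CPN (-2.50 and -2.26, SE 0.30).

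Kcnip2 was at 9.29 and 9.26 in CTPN and 9.01 and 9.42 in CSMN, against 11.06 and 10.79 in CPN, which is 3.15-fold lower in CTPN and 3.28-fold lower in CSMN. Kcnk1, a weakly conducting K2P subunit, was at 9.48 and 9.55 in CTPN and 8.87 and 8.46 in CSMN, against 10.73 and 10.81 in CPN, which is 2.39-fold and 4.30-fold lower. The Kcnk1 call between CTPN and CPN was lost without any 1 of the 4 arrays compared (adjusted p of 0.19 to 0.32). For these 5 genes no CTPN or CSMN array reached a CPN array. As they were picked for their calls, and the same was not counted over all genes, this adds nothing to the calls. Interneuron markers, which mark cells that also express Kcnc2, had means of 6.21 and 6.66 in CTPN, 6.61 and 7.07 in CSMN and 7.10 and 6.93 in CPN, and their part in the result was not tested.

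Kcnn2 was the member called higher in CTPN than in CPN. It read 8.72 and 9.08 in CTPN and 8.28 and 7.75 in CSMN, against 7.09 and 7.13 in CPN, 3.45-fold higher in CTPN (1.79 ± 0.21, adjusted p = 0.000661). CTPN arrays lay above all CSMN arrays, and the difference of 0.88 between CTPN and CSMN had an adjusted p of 0.181. Kcnab1 was at 11.14 and 11.11 in CTPN, against 9.81 and 8.68 in CSMN and 9.94 and 9.84 in CPN, and the CTPN values were the highest of that gene on any array. Its differences of 1.89 from CSMN (adjusted p = 0.128) and 1.24 from CPN (adjusted p = 0.327) did not pass.

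**Figure D4:**
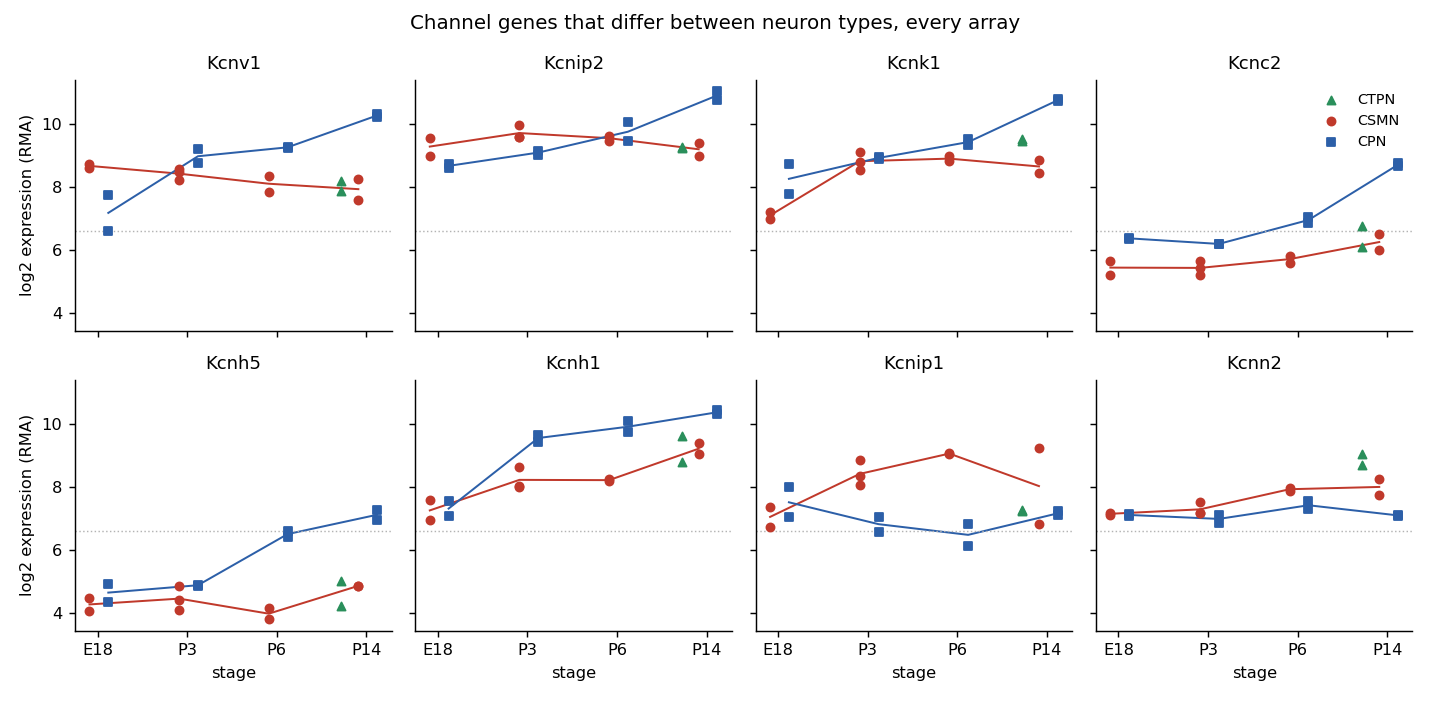
Log2 expression by stage of 8 channel genes called between neuron types, every array shown (CTPN green triangles, CSMN red circles, CPN blue squares), lines joining group means and the highest array median dotted. At P14 the CTPN points of Kcnv1, Kcnip2, Kcnk1, Kcnc2 and Kcnh5 lie below CPN, and those of Kcnn2 (8.72 and 9.08) above it.

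The P14 counts turned on the CSMN pair. Between CSMN and CPN 38 members were called without CSMN replicate 1 and 8 without replicate 2, and between CTPN and CSMN 26 and 0. All 5 genes lower in CSMN at P14 kept the call without either of these arrays. A model of the groups compared alone, with 2 arrays against 2, called 0 members between CSMN and CPN at P14. Array weights also called 0, and both gave the same differences. Shares of all genes called in these refits are not given, so the counts do not set members apart from all genes.

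Partners of potassium channels outside the Kcn family were also followed, 20 of 23 listed genes being measured. Between P14 and E18, 8 were higher and 0 lower in CSMN and 9 were higher and 2 lower in CPN, against 15.1% and 19.2% of all genes called in CSMN and CPN. Slc12a5, the potassium-chloride cotransporter that makes GABA inhibitory, was 8.87-fold higher at P14 in CSMN (13.10 and 12.10, against 9.73 and 9.17) and 12.9-fold in CPN (12.70 and 12.78, against 8.97 and 9.14). Lgi1, a secreted ligand that holds Kv channels and receptors at synapses, was higher by 3.55 ± 0.30 in CSMN and by 3.74 ± 0.30 in CPN. Dpp10, an auxiliary of A-type channels, rose by 2.02 and 3.97, and the interaction passed (-1.95 ± 0.46). Cntnap2, which clusters Kv channels beside nodes of Ranvier, rose by 1.76 ± 0.32 in CSMN, with 9.15 and 7.99 at P14 against 6.43 and 7.19 at E18, and fell by 1.55 in CPN, with 8.36 and 8.22 at P14 against 9.86 and 9.82 at E18 (interaction 3.31 ± 0.45, adjusted p = 0.000461). Both CPN arrays at E18 are those with high progenitor markers. Cntnap2 in CPN read 8.30 and 8.24 at P3 and 8.39 and 8.37 at P6, level with P14. With P3 in place of E18 it differed by -0.11 in CSMN and 0.02 in CPN, and the interaction was -0.13 (adjusted p = 0.919). Its partner Cntn2 also fell in CPN (-1.37 ± 0.24). Between types over 4 stages Dpp10 (0.64) and Dlg4, a synaptic scaffold (0.52), were higher in CSMN and Adam22 (-0.42), the receptor of Lgi1, was lower. At P14 Cntnap2 was 3.11-fold higher in CTPN than in CPN (10.11 and 9.74, against 8.36 and 8.22).

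For 46 of the 84 genes several probe sets were present, and these did not always move alike. For Kcna2, an axonal subunit, the brightest probe set (1422197_at) was flat, while 1440759_at was higher at P14 by 3.23 ± 0.46 in CSMN and 3.66 ± 0.46 in CPN, and 1439872_at by 2.29 ± 0.39 and 1.61 ± 0.39, all past a test over all probe sets with a single symbol. The mean of all Kcna2 probe sets rose by 1.42 in CSMN (adjusted p = 0.000193). For Kcnma1 the brightest probe set (1425987_a_at) did not differ by the test between CSMN and CPN at P14 (0.29 ± 0.19), while 1424848_at was lower in CSMN by 1.59 ± 0.27 (adjusted p = 0.0091) and 1428948_at by 1.53 ± 0.36 without passing (adjusted p = 0.07). Of 40 further probe sets of genes called between P14 and E18 in CPN, 36 had the sign of the chosen one and 23 were called in that direction, and of 29 in CSMN 19 and 10. No further probe set was called in the opposite direction to the chosen one in these comparisons. The calls of Kcnip2 between types rest on the brightest of its 3 probe sets, since the others were dim, with means of 5.73 and 4.87.

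**Figure D5:**
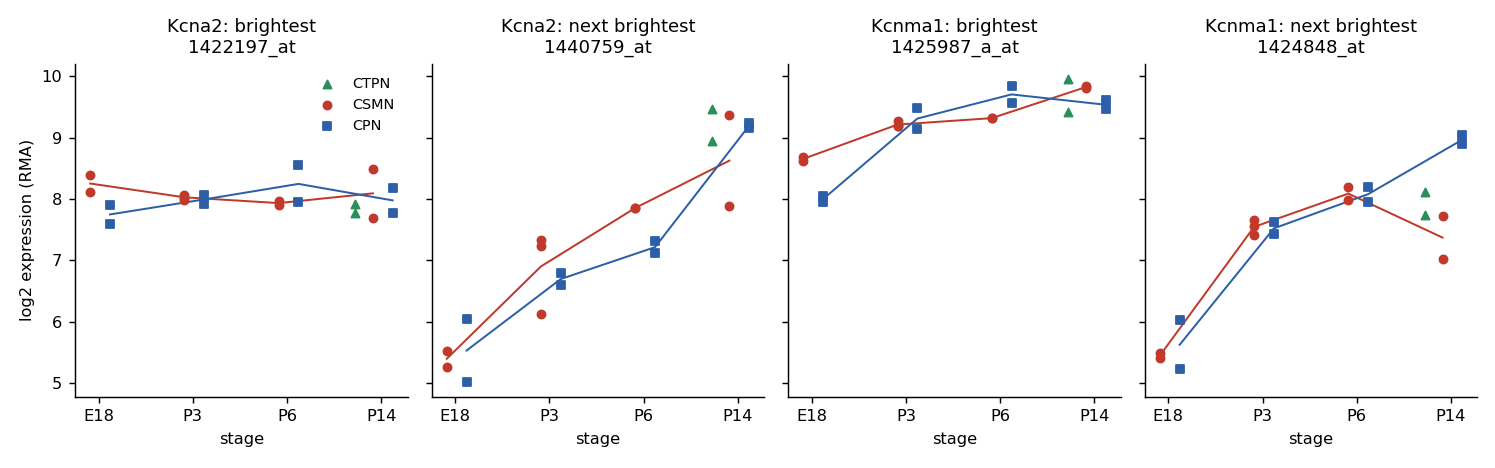
Log2 expression by stage from the brightest and the next brightest probe set of Kcna2 and of Kcnma1, every array shown (CTPN green triangles, CSMN red circles, CPN blue squares) with lines joining group means. The brightest set of Kcna2 stays between 7.60 and 8.55 while 1440759_at climbs in both types, and 1424848_at of Kcnma1 lies lower in CSMN than in CPN at P14.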

How the data were processed

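RNA from sorted neurons was amplified over repeated rounds of in vitro transcription and hybridised to 1 array per sample, per the labels' protocols, and the labels call replicates independent collections. The authors deposited 1 table of log2 values for 45101 probe sets on 19 arrays, made with RMA, per the submitters' processing notes; the version is not given in the sources used here. RMA already includes background correction and quantile normalization, so global shifts in RNA content are not measured. The values ran from 3.17 to 14.4. The precision of each value is limited by the number of arrays.

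Of the probe sets 64 were controls, 34945 had 1 gene symbol, 932 had several and 9160 had none in the platform annotation. A model with 9 group means was fitted to 18193 genes with limma 3.58.1 in R 4.3.3 (lmFit, contrasts and eBayes, 10 residual and 4.46 prior degrees of freedom), and a gene was called at an adjusted p (Benjamini-Hochberg, over the whole table) under 0.05. Tables and plots used Python 3.11.15, pandas 2.3.3 and matplotlib 3.10.9. On simulated data the model recovered 27% of genes changed by 1 log2 unit and 94% of those changed by 2 between P14 and E18 in CSMN. Of the simulated calls 1.63% were false in that comparison and 9.33% in the same comparison in CPN. The simulation gave each gene 1 spread on all arrays. In the data the median standard deviation of members ran from 0.09 in CPN at P3 to 0.49 in CSMN at P14. The recovery therefore need not hold for comparisons with the CSMN pair at P14.

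Members and gene lists were chosen with earlier results of these data known. In each comparison up to 3 called genes per family and direction with the widest difference were named, beside a set of genes always examined; other genes, and the probe sets, were named after their values were seen. Whether replicate numbers pair the arrays across groups was not settled. The correlation of deviations between same-numbered arrays ran from -0.31 to 0.59 over 72 pairs and exceeded 0.1 in 34. The same correlation between differently numbered arrays is not given for comparison, so these values cannot decide whether some groups share a collection or batch. Alternatives were quantile and cyclic loess normalization, a brightness filter, other probe set rules, an intensity trend, array weights, a model of the groups compared alone, a replicate block, each array left out, and E18 left out or replaced by P3.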

Additional observations from a re-analysis of the deposited data

Results flagged for a closer look

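For 9 genes the change from E18 to P14 differed between CSMN and CPN by limma's interaction term. The interaction, CSMN minus CPN on the log2 scale, was -3.84 for Kcnv1, -3.51 for Kcnt2, -2.51 for Kcns2, -2.33 for Kcnip2, -1.93 for Kcnq5, -1.88 for Kcnh5 and -1.53 for Kcnc2. It was 2.92 for Kcne1l and 2.81 for Kcnj10. All 9 rest on the CPN arrays at E18, where progenitor markers were high, and on the CSMN pair at P14, the least alike. The part of either in these results was not tested. With P3 in place of E18 the interaction was called for Kcnip2 alone.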

How the results depend on the processing

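Of 127 named results past the test, 49 passed under every alternative. Calls were lost for 4 with quantile normalization, 6 with cyclic loess, 17 with the mean of all probe sets, 5 with an intensity trend, 40 with array weights, 45 with the groups compared alone, and 30 of 54 with P3 in place of E18. For counts under alternatives and without single arrays, here and above, the share of all genes called is not given. The exceptions are the settings with E18 left out or replaced. Such counts do not show whether members moved more than all genes. Counts of members called that moved by over 1.5 times follow. Cyclic loess gave 2 at P3. Genes above the median mean gave 5 for the interaction, 10 between types over 4 stages, 7 at E18 and 3 at P14, with fewer genes in the fit. The mean of all probe sets gave 7 at P6 and 8 at P14, and an intensity trend 0 at P3. Array weights gave 6 for P14 against E18 in CSMN, 3 for the interaction, 6 at E18, 26 at P3, 10 at P6, 0 at P14, 10 for P6 against P3, 10 for P14 against P6 and 11 for CTPN against CPN. Groups compared alone gave 4 for P14 against E18 in CSMN, 1 for the interaction, 5, 9, 2 and 0 between types at E18, P3, P6 and P14, 1 for P6 against P3 and 11 for P14 against P6. With P3 in place of E18 CPN had 18 and the interaction 1, and without E18 the types differed in 10. The cause of these moves was not tested. Quantile normalization and cyclic loess split the CSMN calls between P14 and E18 as 25 higher to 6 lower and 25 to 4, and the calls between types as 12 to 5 and 9 to 5 at E18, 0 to 4 and 1 to 4 at P6, and 1 to 6 in both at P14.

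Leaving out each array in turn gave 18 to 32 calls for P14 against E18 in CSMN, 26 to 33 in CPN, 5 to 25 for the interaction, 10 to 29 between types over 4 stages, 8 to 16 at E18, 0 to 3 at P3, 1 to 6 at P6, 4 to 38 at P14, 13 to 26 for P3 against E18, 0 to 0 for P6 against P3, 10 to 39 for P14 against P6, 0 to 26 for CTPN against CSMN and 4 to 8 for CTPN against CPN. The replicate block gave 26 calls for P14 against E18 in CSMN and 31 in CPN, moved no count by over 1.5 times and lost 3 of the 127 calls.

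Sign changes were as follows. Between types over 4 stages Kcnn1 was at -0.015 with quantile normalization and -0.016 with the replicate block. The mean of all probe sets gave 1.42 for Kcna2 and 0.15 for Kcnip2 in CSMN, and between types 0.0018 for Kcnd2, 0.15 for Kcnj3 and -0.20 for Kcnma1. With P3 in place of E18, Kcna2, Kcnq3, Kcnk2, Kcnip1, Kcnn1 and Kcnn2 were at -0.016, -0.030, 0.49, 0.34, -0.62 and 0.11 in CPN, Kcnk1, Kcna2, Kcnq3 and Kcnip1 at -0.17, 0.065, -0.15 and -0.39 in CSMN, and the Kcnj10 interaction at -0.011. Without E18, Kcne1l, Kcnj10, Kcna2 and Kcnma1 were at 0.16, 0.039, -0.055 and -0.065 between types. Leaving out single arrays turned the sign of Kcnc1 (-0.049 to 0.26), Kcnk2 (-0.49 to 0.26), Kcnip1 (-0.83 to 0.12) and Kcnn2 (-0.039 to 0.010) in CPN, of Kcnip2 (-0.37 to 0.20), Kcnc1 (-0.12 to 0.47), Kcna2 (-0.56 to 0.24), Kcnip1 (-0.23 to 2.19), Kcnj10 (-0.68 to 0.48) and Kcnk2 (-1.64 to 0.20) in CSMN, and of Kcnn1 (-0.14 to 0.19), Kcna2 (-0.014 to 0.18) and Kcnj3 (-0.21 to 0.11) between types.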
